A study of Homo sapiens with 10 samples.

Results

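POU3F1, POU3F2, POU3F3, SOX2, SOX3, SOX4, SOX11 and SOX12 encode transcription factors of the POU class III and SOX families. These 8 genes, of 39472 gene symbols counted, were chosen by name around 1 measured value, the gain of POU3F2 5' leader counts with rocaglates. RNA crosslinked to FLAG-tagged eIF4A was captured through the FLAG tag and sequenced (eCLIP) in HEK 293T cells, an established human line of embryonic kidney origin. Before UV crosslinking the cells spent 1 h in vehicle (DMSO) or in a rocaglate, either silvestrol or CR-1-31-B, both at 20 nM. Each of these groups has 3 libraries, numbered 1 to 3. All these groups carry the tagged eIF4A, and the labels do not say which eIF4A gene was tagged, how the tagged cells were made, or whether they are 1 clone. A single input library, number 2, was made without antibody, and its labels give no treatment. The labels do not say that the numbers mark separate cultures, so p-values measure the spread between these libraries only.

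eIF4A is the RNA helicase of the cap-binding complex eIF4F, which opens structure in the 5' leader so that the ribosome can load. Rocaglates such as silvestrol and its synthetic relative CR-1-31-B clamp eIF4A onto RNA, with a preference for stretches of purines. POU class III factors (POU3F1, also known as OCT6, POU3F2, also known as BRN2, and POU3F3, also known as BRN1) bind octamer DNA and act in neural progenitors and neurons. SOX2 and SOX3 are SOXB1 factors that keep neural progenitors undifferentiated, and SOX4, SOX11 and SOX12 are SOXC factors that act as progenitors become neurons. In GENCODE v29 (GRCh38) the chosen transcript of each of the 8 genes is a single exon, which holds for 6.06% of genes.

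The first transcribed bases are shown because purine stretches are what rocaglates are known to prefer. Of the 8 genes, 7 matched RefSeq (GRCh38.p14), and SOX11 did not. For each the 30-base window with the most purines among the first 50 transcribed bases was taken, and capitals mark unbroken purine runs of at least 6 bases. The windows of the 4 genes whose leaders had enough counts to test are given 5' to 3' on the sense strand, and they lie at chr6:98834574-98834603 (+), chr2:104854134-104854163 (+), chr6:21593763-21593792 (+) and chr20:325555-325584 (+) in the order listed.
POU3F2: AGAGAGctGGAGAGAGcAGGGAGAGGGGGG
POU3F3: GAGAGGGAGGGAcAGAGAGcgaactgtcag
SOX4: agcAAGAGAAActgtgtgtGAGGGGAAGAG
SOX12: GAAAGGcgtcggcggccgggcGGGGAGcgg

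The POU3F2 window begins at the first RefSeq base and holds 27 purines in 30 bases, a count reached by 0.478% of the 14010 genes in the table, whose median is 18. POU3F3 and SOX4 hold 24, reached by 4.64% of genes. SOX12 and POU3F1 hold 22 (15.6%), and SOX2 and SOX3 hold 19 (47.3%). The 6-base motif GAGAGA was searched on the sense strand only, and 2.41% of genes hold it in their first 50 bases. POU3F2 and SOX3 were the members that did. In whole GENCODE leaders, with overlapping matches counted, SOX4 holds 7 sites, SOX2 4, POU3F2 2 and SOX3 0. The SOX3 motif thus lies outside its GENCODE leader. Over its whole GENCODE leader of 282 bases, POU3F2 is 72.0% purine, against a median of 50.8% over 18935 leaders, and 1.25% of leaders are as rich. Its longest purine run is 29 bases, where the median is 8 and 0.787% of leaders have a run as long. The leaders of SOX2 (437 bases) and SOX4 (1767 bases) also hold long runs, of 38 and 28 bases, although they are 50.6% and 50.9% purine overall. The GENCODE transcript of POU3F3 starts at its start codon and so has no leader there, while its RefSeq transcript starts upstream. The SOX12 window lies wholly upstream of its GENCODE start, at chr20:325595. The POU3F2 window begins upstream of its GENCODE start, at chr6:98834592, so only part of it lies in the GENCODE leader. The SOX4 window lies inside its long GENCODE leader, far downstream of the GENCODE start at chr6:21592768. The build and annotation behind the counts are not given in the sources used here, so these windows may not be the stretches in which the leader reads were counted.

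Anti-FLAG libraries held 858733 to 1804732 counts and the input 2193699. Values in CPM (counts per 1000000) are of all counts where the input is included or lengths are used, and of TMM-scaled library sizes in comparisons of the anti-FLAG groups. Each gene has a leader, a coding sequence (CDS) and a 3'UTR count, which makes 24 features here, of which 13 from 5 genes passed the filter on low counts. These were the leaders, CDS and 3'UTRs of POU3F2, POU3F3, SOX4 and SOX12 and the CDS of POU3F1. Leaders took 20.7% to 24.1% of counts in the DMSO libraries, and CR-1-31-B library 3, at 22.8%, was the only rocaglate library within that range. No RNA levels per treatment were measured, and more eIF4A on an RNA cannot be told apart from more of that RNA.

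In vehicle-treated cells the 8 genes spanned from well counted to almost absent. Per kb of transcript, SOX12 (46.8 ± 14.03 CPM per kb, SD, n = 3) and SOX4 (44.2 ± 21.4) were highest and did not differ beyond their spread. POU3F3 (13.7 ± 3.76), POU3F2 (9.18 ± 1.90), POU3F1 (8.78 ± 4.54) and SOX2 (4.46 ± 1.91) followed. The POU3F3 libraries lay just above those of POU3F2 (at least 10.97 against at most 10.71), but its counts include leader counts that its GENCODE length does not cover. POU3F2 overlapped with POU3F1, and POU3F1 with SOX2. SOX3 (0.331 ± 0.574) and SOX11 (0.259 ± 0.0548) were near 0, and their leaders had a count of 0 in all 10 libraries, which at the floor of 3 counts says only that any signal there is below detection. In the input SOX4 stood at 39.5, SOX12 at 18.6, POU3F3 at 6.40 and POU3F2 at 6.07 CPM per kb.

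Leaders of all genes together held 7.57% of the input's counts and 20.7% to 24.1% of those of the DMSO libraries, and the leaders of SOX12, POU3F3 and SOX4 were also higher in DMSO than in the input. The SOX12 leader was at 4.10 CPM in the input (exact Poisson 95% interval 1.88 to 7.79, counting error only) and at 34.6 ± 6.18 CPM in DMSO (SD, n = 3). The POU3F3 leader was at 5.93 CPM (3.16 to 10.1) in the input and 20.9 ± 3.93 CPM in DMSO. The SOX4 leader was at 31.9 CPM (24.9 to 40.3) in the input and at 55.1, 168 and 57.2 CPM in the DMSO libraries. For POU3F2 the leader was low in both, at 1.37 CPM (0.282 to 3.997) in the input and 3.28 ± 2.05 CPM in DMSO. The SOX4 CDS, at 108 CPM (94.3 to 122) in the input and 88.4 ± 27.5 CPM in DMSO, differed by less than the DMSO spread on this scale. Of leader, CDS and 3'UTR counts alone it took 236 of 1282829 in the input. In DMSO libraries 1 to 3 it took 77 of 901357, 129 of 860944 and 69 of 752802. Relative to these counts the input lay above every DMSO library, and the leader differences given above are smaller. Over all 8 genes the input held 838 counts, or 382 CPM (357 to 409), against 596 ± 86.2 CPM in DMSO. Relative to leader, CDS and 3'UTR counts alone these values were 653 and 734 CPM, since non-coding RNA took 39.5% of the input. With 1 input library no test was possible.

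POU3F2 drives upper-layer cortical neuron programmes and is also known from melanoma. Its leader counts in DMSO libraries 1 to 3 were 5, 1 and 4. With silvestrol they were 126, 76 and 53, and with CR-1-31-B 77, 108 and 11. All 6 rocaglate libraries thus lay above all 3 DMSO libraries, and CR-1-31-B library 3 was the lowest of the 6. In scaled units the leader stood at 4.89, 1.06 and 4.58 CPM in DMSO, at 75.9, 86.4 and 67.5 CPM with silvestrol and at 50.9, 93.4 and 12.7 CPM with CR-1-31-B. The log2 fold change against DMSO was 4.40 with silvestrol (SE 0.66, 95% interval 3.04 to 5.76) and 3.86 with CR-1-31-B (SE 0.65, 2.51 to 5.22), ranks 7 and 10 among 7122 tested leaders. These values led to the choice of the genes, so they are given without a test. The leader also passed the filter on low counts only through the rocaglate libraries, where it is high. Without CR-1-31-B library 2 the CR-1-31-B value was 3.23, and without library 3 it was 4.31.

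**Figure D1:**
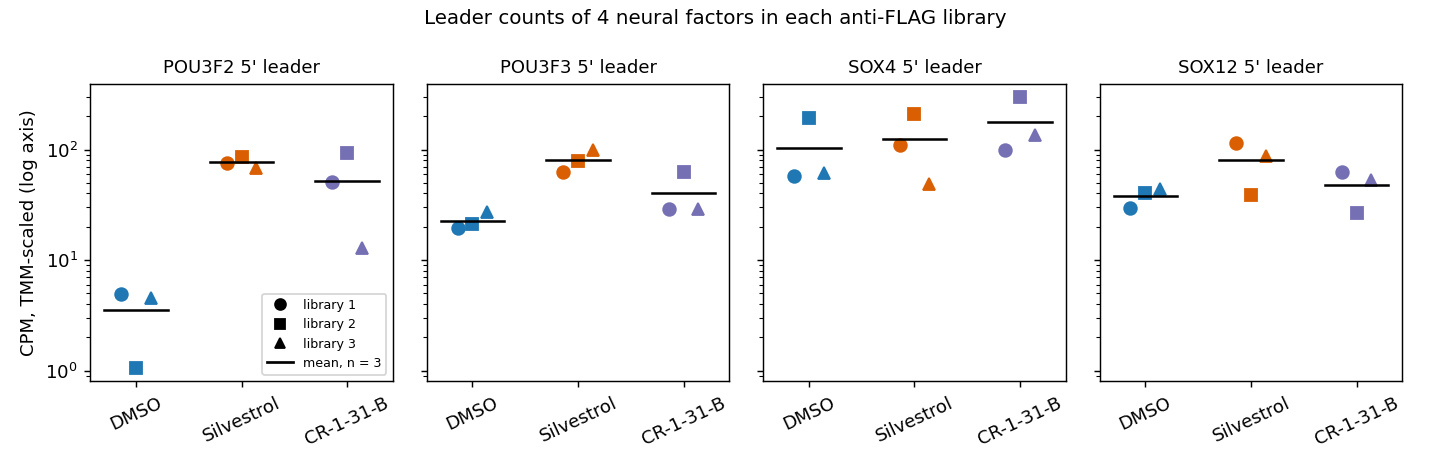
Leader CPM (TMM-scaled, log axis) of POU3F2, POU3F3, SOX4 and SOX12 in each anti-FLAG library. Points are libraries, with shapes for the library number, and lines are group means (n = 3). POU3F2 moved from below 5 CPM in DMSO to 12.7 or more in all 6 rocaglate libraries, and POU3F3 from at most 27.5 to at least 28.97 CPM, while SOX4 and SOX12 overlapped between groups.

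The CDS and 3'UTR of POU3F2 had smaller differences. Its CDS was at 32.3, 32.9 and 22.9 CPM in DMSO, 48.8, 34.1 and 45.9 CPM with silvestrol and 54.9, 45.0 and 35.9 CPM with CR-1-31-B. The 6 rocaglate values again lay above all DMSO values, as those of 2.63% of tested CDS features did, but by a log2 fold change of only 0.55 (SE 0.41) with silvestrol and 0.63 (SE 0.41) with CR-1-31-B. Both intervals include 0. The 3'UTR overlapped between groups, with log2 fold changes of 0.13 (SE 0.69) and 0.11 (SE 0.69). Per kb, the leader went from 11.6 ± 7.25 CPM under vehicle to 245 ± 24.9 (silvestrol) and 171 ± 128 (CR-1-31-B; SD, n = 3), and the CDS from 20.3 ± 3.82 to 29.3 ± 5.98 and 31.6 ± 6.71. By these GENCODE lengths, which may not be those used for counting, the mean leader density was below that of the CDS in DMSO. There it rests on leader counts of only 5, 1 and 4. With either compound the mean leader density was above that of the CDS.

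Expressed as a share of the gene's own counts, which needs no library scaling, the POU3F2 leader held 4.62% in the input (95% Clopper-Pearson interval 0.962% to 12.9%) and 8.93%, 2.70% and 8.89% in the DMSO libraries. It held 50.6%, 69.7% and 50% with silvestrol and 39.7%, 63.2% and 19.0% with CR-1-31-B. All 6 rocaglate libraries lay above the 3 DMSO libraries, a separation whose frequency over all genes was not computed. The silvestrol and CR-1-31-B ranges overlapped, and the input lay within the DMSO range. In a fit of each part against its whole gene, that part included, the POU3F2 leader gained 2.76 on the log2 scale with both rocaglates. Its CDS and 3'UTR were at -0.78 and -1.25 relative to the gene and were not called; these 3 values are parts of 1 total, so a gain of the leader alone lowers the other parts. Among 6160 leaders in that fit, 0.162% were called higher, that is, passed an adjusted p of 0.05, and POU3F2 was among them, again as the basis of the choice. It was no longer called without any 1 of the 3 DMSO or 3 silvestrol libraries or CR-1-31-B libraries 1 or 2, with values from 2.48 to 2.997 over all 9 such fits.

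**Figure D2:**
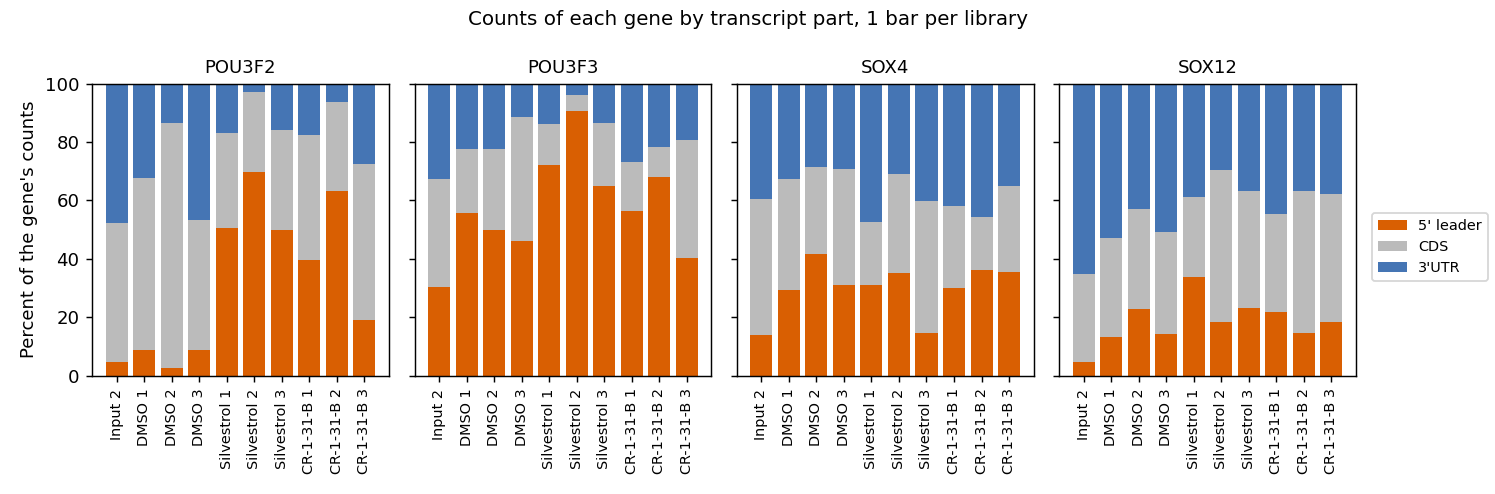
Percent of each gene's counts in its 5' leader, CDS and 3'UTR, with 1 bar per library. The POU3F2 leader share was 2.70% to 8.93% in DMSO and 19.0% to 69.7% in the rocaglate libraries, while the shares of SOX4 and SOX12 overlapped between DMSO and rocaglates.

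POU3F3, the paralogue that acts beside POU3F2 in cortical progenitors, also had more leader counts with silvestrol, without passing the test. Its leader was at 19.6, 21.2 and 27.5 CPM in DMSO, 62.6, 78.5 and 99.4 CPM with silvestrol and 29.1, 62.3 and 28.97 CPM with CR-1-31-B. All 6 rocaglate libraries lay above the DMSO libraries, with CR-1-31-B libraries 1 and 3 just above the highest of them. Such a separation was seen in 8.4% of the 7122 tested leaders, and among the 4 tested leaders of these genes in POU3F2 and POU3F3. With silvestrol POU3F3 differed by 1.81 on the log2 scale, or 3.50-fold (SE 0.43, edgeR adjusted p = 0.0838). With the library number as a block it was 1.80 and called (edgeR adjusted p = 0.0167), as were 3.71% of leaders in that fit. Without CR-1-31-B library 2 it was also called (1.87, edgeR adjusted p = 0.0480), and without each other library it was not (up to 0.251).

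With CR-1-31-B the POU3F3 leader was 0.82 above DMSO on the log2 scale (SE 0.43, edgeR adjusted p = 0.630), a value that was 0.39 without CR-1-31-B library 2. Its leader already held 46.2% to 55.6% of the gene's counts in DMSO, against 30.2% in the input (17.2% to 46.1%). The share was 76.0% ± 13.3 with silvestrol (SD, n = 3), above DMSO in all 3 libraries, and 54.9% ± 13.9 with CR-1-31-B, overlapping DMSO. Leaders of all genes together also held more of the counts with silvestrol, at 28.5% to 34.4% against 20.7% to 24.1% in DMSO. How many genes show such a separation in leader share was not computed. Against its whole gene, leader included, the POU3F3 leader had a log2 usage of 0.37 with both rocaglates (edgeR adjusted p = 1.00). The POU3F3 CDS, with 4 to 26 counts per library, had log2 fold changes of 0.14 and 0.05, and the 3'UTR of 0.55 and 0.96. The 3 CR-1-31-B values of that 3'UTR (13.9, 19.9 and 13.9 CPM) lay above those of DMSO (7.83, 9.55 and 6.87 CPM), a separation seen in 1.46% of 3'UTRs. This 3'UTR was below the filter's cut in every DMSO library and passed it only through rocaglate libraries. Nothing is therefore read from that separation. Neither the CDS nor the 3'UTR was called, and the CDS changed sign without single libraries (-0.76 to 0.75 with silvestrol).

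SOX4, a SOXC factor with roles in neuron maturation and in many tumours, held the most counts of these genes over the 10 libraries. Its leader differed widely within each group. It was at 57.7, 192 and 61.8 CPM in DMSO, 111, 210 and 48.4 CPM with silvestrol and 99.2, 298 and 136 CPM with CR-1-31-B, so library 2 was the highest of each group. The log2 values against DMSO were 0.25 (SE 0.51, edgeR adjusted p = 0.952) and 0.77 (SE 0.51, 0.753). They were 1.07 and 1.60 without DMSO library 2. Leaving out library 2 of the compound itself gave -0.34 for silvestrol and 0.21 for CR-1-31-B. Neither was called in any of the 9 fits without 1 library.

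The SOX4 3'UTR separated the groups where its leader did not. It was at 64.6, 131 and 58.4 CPM in DMSO, 169, 185 and 134 CPM with silvestrol and 140, 373 and 133 CPM with CR-1-31-B. All 6 rocaglate values lay above all 3 DMSO values, which 0.462% of the 6712 tested 3'UTRs showed and none of the 3 other tested 3'UTRs of these genes did. The log2 fold change was 0.94 with silvestrol (SE 0.42, edgeR adjusted p = 0.557) and 1.35 with CR-1-31-B (SE 0.42, 0.214), where the median of all 3'UTRs was -0.26 and -0.27. With the library number as a block the CR-1-31-B value was 1.29 and called (edgeR adjusted p = 0.0210), as were 0.0745% of 3'UTRs, and that for both rocaglates was 1.17 (edgeR adjusted p = 0.0160). Without CR-1-31-B library 2, which holds the highest value, the unblocked CR-1-31-B difference was 0.73, and without DMSO library 2 it was 1.84. The SOX4 CDS had log2 fold changes of 0.56 and 0.28 and overlapped between groups. It was above the DMSO library of the same number in 3 of 3 libraries of each compound, as was the 3'UTR.

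SOX12, the third SOXC factor, had leader values of 29.4, 40.3 and 43.5 CPM in DMSO, 115, 38.7 and 86.6 CPM with silvestrol and 62.8, 26.8 and 53.3 CPM with CR-1-31-B. Libraries 1 and 3 of each compound lay above DMSO, and library 2 of each did not. The edgeR log2 difference was 1.097 with silvestrol (SE 0.44, adjusted p = 0.466) and 0.34 with CR-1-31-B (SE 0.44, 0.906). Without silvestrol library 1 the former was 0.72. The SOX12 CDS (0.53 and 0.36) and 3'UTR (-0.06 and -0.19) were not called, and most SOX12 counts lay in the CDS and 3'UTR in every library. With each compound the CDS was above the DMSO library of the same number in 3 of 3 libraries. The leader was above it in 2 of 3 and the 3'UTR in 1 of 3. The leader share was 4.76% in the input (2.20% to 8.85%). It was 16.8% ± 5.33 in DMSO, and silvestrol (25.1% ± 7.83) and CR-1-31-B (18.3% ± 3.58) libraries overlapped that range.

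**Figure D3:**
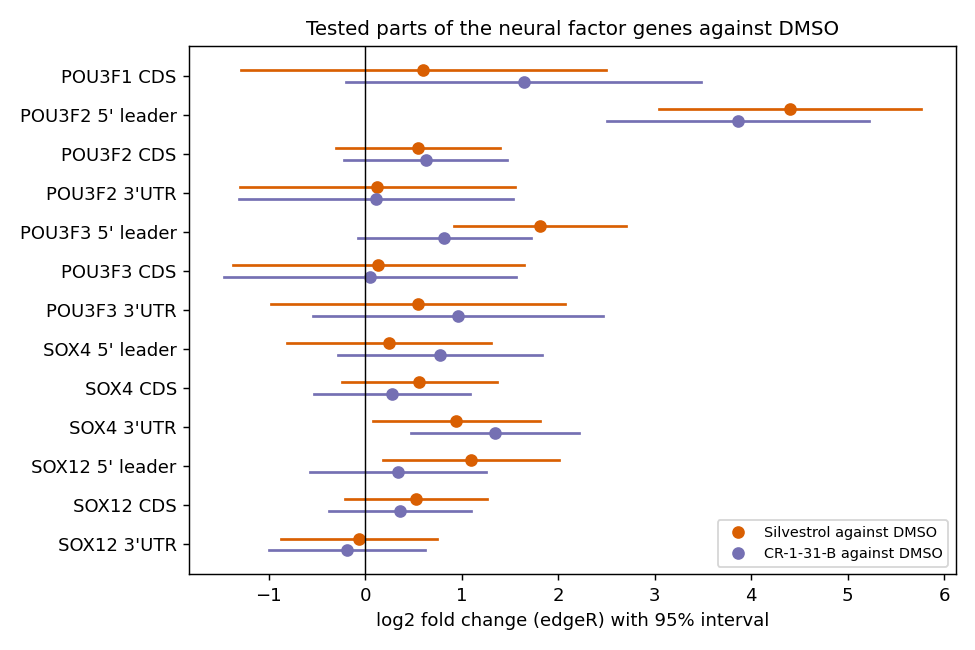
Log2 fold changes against DMSO with 95% intervals (edgeR) for the 13 tested parts, silvestrol in orange and CR-1-31-B in purple. The POU3F2 leader stands apart from the rest, and of the other 12 parts the intervals of the POU3F3 and SOX12 leaders with silvestrol and of the SOX4 3'UTR with both compounds lie above 0 before adjustment.

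The 4 remaining genes had few counts. POU3F1, the class III factor of Schwann cells and early neural fate, had 11 leader counts in DMSO library 2 and 0 in the other 9 libraries. Its CDS was at 2.94, 2.12 and 13.7 CPM in DMSO, 4.82, 10.2 and 14.02 CPM with silvestrol and 2.64, 31.1 and 25.5 CPM with CR-1-31-B. The groups overlapped, and the log2 fold changes were 0.60 (SE 0.91, edgeR adjusted p = 0.934) and 1.64 (SE 0.89, 0.645). Without DMSO library 3, the highest of its group, they were 1.86 and 2.90.

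SOX2, the pluripotency and neural stem cell factor, had leader counts of 1, 0 and 6 in DMSO, 10, 1 and 6 with silvestrol and 10, 4 and 5 with CR-1-31-B. No group stood apart, and none of its parts was tested. The 38-base purine run of its leader therefore could not be set against a measured change. SOX3 had at most 6 counts over all its parts in any library. SOX11, which acts in newborn neurons, had 3'UTR counts of 0, 3 and 2 in DMSO, 6, 16 and 8 with silvestrol and 11, 8 and 11 with CR-1-31-B. These 6 rocaglate counts all exceeded the DMSO counts, and in scaled units 3.61 to 18.2 CPM stood against 0 to 3.18 CPM. The SOX11 3'UTR did not pass the filter and was not tested. Among tested 3'UTRs 0.462% showed such a separation, but that share does not apply to 3'UTRs with counts this low, for which none was computed. The untested 3'UTRs of POU3F1 and SOX2 had lower means with CR-1-31-B than in DMSO. That of POU3F1 was at 5.87, 18.0 and 9.16 CPM in DMSO and at 1.32, 5.19 and 4.63 CPM with CR-1-31-B, all below DMSO, while silvestrol (3.61, 6.82 and 19.1 CPM) overlapped. In counts these were 2 to 6 with CR-1-31-B and 6 to 17 in DMSO. How many 3'UTRs lie below every DMSO library was not computed, and only 29.6% of tested 3'UTRs were above DMSO with CR-1-31-B. The SOX2 3'UTR averaged 5.55 ± 4.77 CPM in DMSO, 1.05 ± 1.33 CPM with silvestrol and 1.82 ± 1.74 CPM with CR-1-31-B (SD, n = 3), with overlapping libraries.

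Counted over the members, the POU3F2 leader was called with each compound and no other part was. That is 1 of 4 tested leaders with silvestrol, where 0.857% of all tested leaders were called higher, and 1 of 4 with CR-1-31-B, where 0.8% were. For both rocaglates together it is 1 of 4 beside 1.39%. Since POU3F2 defined the choice, nothing is read from these counts. Of all CDS features 0.0119%, 0.155% and 0.226% were called higher in the same order, and of all 3'UTRs 0%. Its CR-1-31-B call was lost without any 1 DMSO library or without CR-1-31-B library 2. For the 4 tested leaders the median log2 fold change was 1.45 (silvestrol) and 0.80 (CR-1-31-B), beside 0.40 and 0.35 over all leaders. These leader medians include POU3F2, whose gain defined the choice, so no shift of the group is read from them. The leaders of POU3F3, SOX4 and SOX12 were at 1.81, 0.25 and 1.097 with silvestrol. With CR-1-31-B they were at 0.82, 0.77 and 0.34. For the 5 tested CDS the median was 0.55 and 0.36 beside -0.12 and -0.03. For the 4 tested 3'UTRs it was 0.34 and 0.54 beside -0.26 and -0.27. All 5 CDS values were above 0 with each compound, where 41.2% and 48.0% of all CDS values were, and none was called. The POU3F1 CDS passed the filter mostly through rocaglate libraries, and the POU3F3 3'UTR only through them. POU3F2 defined the choice, so no shift of the group is read from these CDS and 3'UTR values either. Such values were not particular to these genes. A list of 30 other genes with an intronless coding sequence, described at the end, had CDS medians of 0.44 and 0.44 and 3'UTR medians of 0.27 and 0.20.

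**Figure D4:**
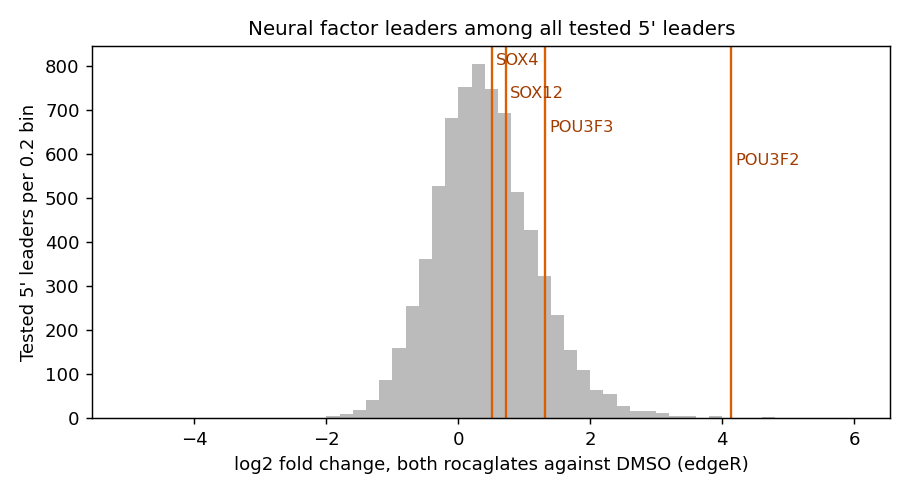
Histogram of log2 fold changes of all 7122 tested 5' leaders for both rocaglates against DMSO (bins of 0.2), with vertical lines at the 4 tested leaders of the neural factors. SOX4 (0.51) and SOX12 (0.72) lie in the body of the distribution, POU3F3 (1.31) on its upper shoulder and POU3F2 (4.13) at rank 8.

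The compounds were also set against each other at their shared dose and time. For CR-1-31-B against silvestrol the log2 fold change of the POU3F2 leader was -0.54 (SE 0.50, 95% interval -1.57 to 0.50, edgeR adjusted p = 1.00). The POU3F3 leader was at -0.99 (SE 0.41, interval -1.84 to -0.14), which lay below 0 before adjustment and not after it (edgeR adjusted p = 1.00). SOX12 was at -0.76 (-1.65 to 0.14) and SOX4 at 0.52 (-0.53 to 1.57). No part of the 8 genes passed the test, and over all 24713 features edgeR called 0, with 609 at an unadjusted p under 0.05, and DESeq2 called 0. Each of the 4 leader intervals reaches past a log2 difference of 1, towards silvestrol for POU3F2, POU3F3 and SOX12 and towards CR-1-31-B for SOX4, so they do not show that the compounds act alike. With the replicate block 0.014% of leaders were called higher with CR-1-31-B, and no member was among them.

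Leaders with a purine-rich start had higher fold changes as a group. RefSeq windows matched 5846 of the tested leaders (82.1%). The 40 of them with at least as many purines as the POU3F2 window, POU3F2 included, had a median log2 fold change of 1.503 with silvestrol and 1.31 with CR-1-31-B, and the 5806 others 0.40 and 0.37. Across these leaders, which share libraries and differ in base composition and depth, the Spearman correlation of window purines with the fold change was 0.18 and 0.15. The 146 leaders with GAGAGA in their first 50 bases had medians of 0.76 and 0.60. POU3F3 and SOX4 have equally purine-rich windows, with silvestrol log2 fold changes of 1.81 and 0.25. For both genes the RefSeq start used for the window differs from the GENCODE start. Single-exon genes, to which all 8 belong, had leader medians of 0.57 and 0.59 over 133 tested leaders, and multi-exon genes 0.40 and 0.36 over 6826.

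The leaders whose log2 CPM followed that of POU3F2 most closely over the 9 anti-FLAG libraries were CCDC85C (Pearson r = 0.98), LRFN1 (0.98), PRRC2A (0.97), PAIP1 (0.97) and NAB2 (0.97). These values describe libraries that include the treatment itself and carry no test. The PAIP1 leader, of a gene for a poly(A)-binding protein partner, was at 36.0 ± 9.41 CPM in DMSO and reached 131 ± 37.3 CPM (silvestrol) and 93.8 ± 29.6 CPM (CR-1-31-B; SD, n = 3). Among the members POU3F3 followed POU3F2 at 0.85, rank 364 of 7122 leaders. SOX12 (0.35) and SOX4 (0.23) followed it less.

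The other POU and SOX genes were read as a list of 25, of which 6 leaders, 8 CDS and 5 3'UTRs had enough counts. None of these was called with either compound. The leader medians were 1.46 with silvestrol and 1.42 with CR-1-31-B, beside 0.40 and 0.35 over all leaders, and the CDS medians were -0.04 and -0.04. For both rocaglates together the leaders ranged from -0.13 in POU6F1 (SE 0.57, edgeR adjusted p = 0.969) to 2.06 in SOX9 (SE 0.78, 0.320), which specifies glia and cartilage. With the replicate block 1 of the 6 leaders was called, SOX13 at 1.65 (edgeR adjusted p = 0.0408), in a fit that called 5.38% of all leaders higher.

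A second list held 38 genes of neural progenitors and neuronal differentiation. Of its members 20 leaders, 19 CDS and 17 3'UTRs were tested and none was called. Its leader medians were 0.86 and 0.66. For both rocaglates the highest leader was HEY1, a Notch target that holds back differentiation, at 1.62 (SE 0.39, edgeR adjusted p = 0.0604), and the lowest was ID3, an inhibitor of proneural factors, at -0.52 (SE 0.70, 0.869). With the replicate block 3 of the 20 leaders were called for both rocaglates, where 5.38% of all leaders were called higher. They were HEY1 (1.58, edgeR adjusted p = 0.0115), ID4 (1.26, 0.00814) and ID2 (1.17, 0.0250). In that fit 1 CDS was called, that of ID2 (1.59, edgeR adjusted p = 0.0227), with CR-1-31-B, where 0.998% of all CDS were called higher.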

How the data were processed

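The authors deposited read counts per gene symbol and transcript class, 1 file per library, per the file headers. Per the submitters' processing notes, cutadapt and Bowtie 1.1 were used upstream. The build, annotation, strand use, duplicate handling and counting rule are not given in the sources used here, so counts of overlapping or antisense genes are uncertain (SOX2 lies within SOX2-OT). The 9 anti-FLAG libraries were fitted together with edgeR 4.0.16 in R 4.3.3 (filterByExpr by group, TMM, quasi-likelihood test, Benjamini-Hochberg over 24713 features, adjusted p under 0.05, no fold minimum). Usage within a gene was fitted with diffSpliceDGE. Likeness used log2 CPM with a prior count of 2. Poisson and Clopper-Pearson intervals and the floor concern counting error alone.

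The members and lists were chosen with earlier results of these data known. Named genes were all members, genes of the lists of other POU and SOX genes and of neural genes with a call, or else the highest and lowest leader, the 5 leaders most like POU3F2, and called genes of a list with intronless coding sequences. SOX13, ID2 and ID4 were named for their blocked calls after their values were seen.

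Library numbers were checked for pairing from deviations of log2 CPM from group means. Same-numbered libraries correlated at 0.102 to 0.263 and others at -0.203 to 0.0163, so the numbers were taken as pairs, from the data and not from the labels. The fit without the block is the main one. Libraries of a group differed beyond sampling noise (chi-square per degree of freedom 3.97 to 9.07). On simulated counts of 24713 features, the edgeR step recovered 52 of 100 features changed 4-fold with silvestrol, 49 with CR-1-31-B and 65 with both, each against DMSO, and 32 between the compounds. Of 100 changed 2-fold it recovered 4, 0, 4 and 1. The usage step, over 18667 parts, recovered 2 of 100 changed 4-fold and 1 of 100 changed 2-fold.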

Additional observations from a re-analysis of the deposited data

How the results depend on the processing

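The library totals limit what can be called, and 11 of the 24 parts of these genes were too low to test. Features called, in the order silvestrol, CR-1-31-B and both rocaglates, each against DMSO, and then CR-1-31-B against silvestrol, numbered 63, 72, 121 and 0. They were 215, 225, 320 and 7 without the filter on low counts, 316, 365, 505 and 1 with the replicate block, 308, 335, 531 and 0 with DESeq2, and, for the first 3, 100, 144 and 211 with leader, CDS and 3'UTR counts alone. Without 1 library they ranged from 4 to 100, 0 to 226, 7 to 287 and 0 to 0. Parts with changed usage numbered 15, and 9 without the filter, 75 with the replicate block and 0 to 24 without 1 library. The input sum was 382 CPM, or 653 over leader, CDS and 3'UTR counts.

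Of 909 values for members under alternatives, 844 kept their direction and side of the threshold, 46 (20 results, none called) changed sign, 7 gained a call and 12 lost one, all of these 12 in the POU3F2 leader without 1 library. The POU3F3 leader was also called with silvestrol without the filter (edgeR adjusted p = 0.0393) and by DESeq2 (0.00706), which called it for both rocaglates too (0.0302). Beside the calls given in the report, the replicate block changed no other call of a member. Among log2 fold changes that changed sign without 1 library, silvestrol values ranged from -0.34 to 1.07 (SOX4 leader), -0.76 to 0.75 (POU3F3 CDS), -0.34 to 0.60 (POU3F2 3'UTR) and -0.26 to 0.22 (SOX12 3'UTR). CR-1-31-B values ranged from -0.70 to 0.66 (POU3F3 CDS), -0.26 to 0.56 (POU3F2 3'UTR) and -0.41 to 0.0935 (SOX12 3'UTR), and those for both from -0.36 to 0.71, -0.25 to 0.57 and -0.32 to 0.15 for the same parts. CR-1-31-B against silvestrol ranged in leaders from -0.10 to 1.12 (SOX4), in CDS from -0.10 to 0.22 (POU3F2), -0.84 to 0.79 (POU3F3), -0.58 to 0.0453 (SOX4) and -0.31 to 0.0132 (SOX12), and in 3'UTRs from -0.49 to 0.45 (POU3F2, and 0.20 with the replicate block), -0.0098 to 0.93 (POU3F3), -0.27 to 0.65 (SOX4) and -0.41 to 0.0837 (SOX12). The SOX4 leader usage ranged from -0.35 to 0.0669. The cause was not tested.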

Other observations

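A list of 30 other genes with an intronless coding sequence, of which 29 are single-exon in GENCODE v29, was set beside the neural factors. Of its 16 tested leaders 4 were called for both rocaglates together, where 1.39% of all tested leaders were. They were JUNB, 2.89 higher on the log2 scale (SE 0.63, edgeR adjusted p = 0.0416), IER2 at 2.14 (SE 0.49, 0.0498), JUN at 1.95 (SE 0.40, 0.0316) and NRARP, a Notch feedback inhibitor, at 1.69 (SE 0.36, 0.0339). JUN, JUNB and IER2 are immediate early genes. This list was chosen with earlier results of these data known, so nothing is read from its shares of called leaders. The leader medians of this list were 1.31 with silvestrol and 1.34 with CR-1-31-B, beside 0.40 and 0.35 over all leaders, and none of its 23 tested CDS or 21 tested 3'UTRs was called in this fit.

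The JUNB leader was at 2.29 to 8.49 CPM in DMSO, 25.02 to 39.2 CPM with silvestrol and 13.9 to 69.2 CPM with CR-1-31-B, so both compounds lay above DMSO, as 8.4% of all tested leaders did in every library, and their own ranges overlapped. JUN and IER2 were also called with CR-1-31-B alone, at 2.87 (edgeR adjusted p = 0.00889) and 2.86 (0.0173). With silvestrol alone edgeR called no leader of the list, with JUNB at 2.84 (adjusted p = 0.0824) and NRARP at 1.77 (0.0532). DESeq2 called JUNB (adjusted p = 0.00840) and NRARP (0.000771) with silvestrol, and edgeR with the replicate block called 5 of the 16, where 3.71% of all leaders were called higher. Whether the compounds differed was tested directly. For JUN the difference of CR-1-31-B from silvestrol was 1.85 (edgeR adjusted p = 1.00), and with the replicate block it was 1.82 and called (0.00292), where 0.014% of leaders were. It was also called without the filter on low counts (0.00764) and not by DESeq2 (0.197). With the replicate block 8 of the 16 leaders were called for both rocaglates, where 5.38% of all leaders were. Without any 1 DMSO library, silvestrol library 1 or CR-1-31-B library 2, none of the 4 leaders was called for both rocaglates (edgeR adjusted p up to 0.238). The CR-1-31-B calls of JUN and IER2 held in 6 and 5 of 9 fits without 1 library.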
